A study of Mus musculus with 8 samples.

Results

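The muscle protein lysine methyltransferases examined here are *Mettl21a*, *Mettl21c*, *Mettl21e*, *Smyd1*, *Smyd2* and *Setd7*, 6 of the 55401 genes in the deposited table. They were taken by gene symbol and were chosen from results of the same *mdx5cv* against WT contrast, so their differences between the groups are given as a description and no test is attached to them. Whole tibialis anterior (TA) muscles were taken from male mice aged 6 months, 4 of the wild type C57/Bl6 strain (WT) and 4 *mdx5cv*, a mouse model of Duchenne muscular dystrophy on the B6 background that carries a mutation in *Dmd*. RNA was measured by bulk RNA-seq after removal of ribosomal RNA, and the values are normalized counts, the reads of a gene divided by a size factor for that muscle. The muscles are numbered within each group and the labels do not say that each came from another mouse, so the spread may be between samples only. All values come from RNA and none from protein or from methylation of a protein.

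Protein lysine methyltransferases move a methyl group from S-adenosylmethionine to the side chain of a lysine. The METTL21 enzymes have a seven-beta-strand fold and are best known for methylating molecular chaperones of the Hsp70 class, and METTL21C and METTL21E are known as muscle-enriched members. The SMYD enzymes carry a SET domain split by a MYND zinc finger. SMYD1 is needed in heart and skeletal muscle for the assembly of myofibrils, SMYD2 is a mostly cytosolic enzyme that methylates HSP90 and is found with titin, and SETD7 methylates histone H3 and many other proteins.

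In *mdx5cv* TA, *Mettl21c* stood at 0.171 and *Smyd2* at 0.432 of the WT level, and no *mdx5cv* muscle overlapped a WT muscle for either gene (fold change taken back from the log2 scale, n = 4 per group). *Smyd1* (0.645) and *Setd7* (0.788) were lower by less, and this depended on how the muscles were scaled: with each muscle set to the same total of reads the groups overlapped for both genes, and the difference of *Setd7* changed sign. *Mettl21e* overlapped between the groups at a low level. *Mettl21a* had the higher mean in *mdx5cv*, again with overlap.

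Of the 6 members, 4 had every *mdx5cv* muscle below every WT muscle. The same arrangement was found in 19.8% of all 13677 genes tested, and the reverse arrangement, with every *mdx5cv* muscle above, in 20.3%. Since the members were selected on this contrast, nothing is read from their count against these shares. All 6 were above the minimum level for testing, a mean normalized count of 10 over the 8 muscles.

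Promoter sequence was at hand for 4 of the 6 members in RefSeq (GRCm38.p6). The windows of *Smyd1* and *Smyd2* are shown because both belong to the SMYD family and both were lower in every *mdx5cv* muscle, yet they differ in base composition. Each is the 250 bases before the RefSeq start, written 5′ to 3′ on the strand of the gene, with CpG dinucleotides in capitals. *Smyd1* is read from chr6:71262282-71262531 and *Smyd2* from chr1:189922292-189922541, both on the minus strand.
Smyd1: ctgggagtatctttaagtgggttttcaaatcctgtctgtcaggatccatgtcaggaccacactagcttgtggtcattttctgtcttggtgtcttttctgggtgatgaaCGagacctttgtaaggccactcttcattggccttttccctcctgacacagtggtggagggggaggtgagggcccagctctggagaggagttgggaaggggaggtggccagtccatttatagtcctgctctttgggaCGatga
Smyd2: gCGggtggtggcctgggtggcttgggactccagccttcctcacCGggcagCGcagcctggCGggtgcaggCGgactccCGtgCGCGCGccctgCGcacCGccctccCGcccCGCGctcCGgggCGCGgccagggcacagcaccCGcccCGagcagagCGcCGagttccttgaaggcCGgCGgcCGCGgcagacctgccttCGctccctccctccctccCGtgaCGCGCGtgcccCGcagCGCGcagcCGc
The *Smyd2* window held 34 CpG and 78.8% G and C, more G and C than 98.3% of the 32851 promoter windows of that length. The *Smyd1* window held 2 CpG, below the median of 6 over all windows, and 51.6% G and C, close to the median of 52.4%. The window of *Setd7* held 17 CpG at 60.4% G and C, and that of *Mettl21a* 8 CpG at 52.4%. The E-box CANNTG, the site class of the MyoD family, was searched on both strands and was present in 66.2% of all windows. It occurred 2 times in the *Mettl21a* window and 1 time in that of *Setd7*, and these letters were not in the windows of *Smyd1* and *Smyd2*. The E-box form CAGCTG, counted within CANNTG as well, was present in 13% of windows, among them those of *Mettl21a* and *Setd7*. TATAAA, present in 12.4% of windows, occurred in the *Smyd1* window 28 bases before the start, on the strand opposite to the gene. Matches to the CArG box (1.47% of windows) and the MEF2 site (2.92%) were not in the 4 windows. The RefSeq start of *Smyd1* lies inside the longer gene body given by GENCODE, so another start of that gene is not covered by this window. The *Mettl21a* window begins at 64617765, upstream of the GENCODE start at 64617242, and does not reach it. The windows of *Smyd2* and *Setd7* overlap the GENCODE gene bodies, which start at 189922363 and 51560879.

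The table held 13175524 to 14921057 recovered reads per muscle, with size factors of 0.873 to 0.944 in WT and 1.06 to 1.25 in *mdx5cv*. At an adjusted p under 0.05 from limma, 20.9% of the genes tested were called higher in *mdx5cv* and 20.1% were called lower. Setting each muscle to the same total moved the median over all genes from 0.0035 to 0.36 on the log2 scale and the calls from 2854 higher and 2743 lower to 5444 higher and 820 lower. *Dmd*, the gene mutated in *mdx5cv*, had 6169 to 8155 normalized counts in WT and 3461 to 4400 in *mdx5cv* (log2 fold change -0.81, SE 0.12, adjusted p = 0.000177 from limma). The tissue label fits the level of *Myh4*, the heavy chain of fast 2B fibers, which had 299501 to 516258 normalized counts. The heart gene *Nppa* had no read in any muscle. Heart markers were not absent as a list, since 5 of them summed to 45.0 to 88.2 normalized counts in WT and 235 to 499 in *mdx5cv*.

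*Mettl21c* is the member of the METTL21 family best known from skeletal muscle, where its product is found in slow and oxidative fibers. It lies on chromosome 1 from 44009408 to 44020034 (GRCm38, GENCODE M21), on the minus strand. Its normalized counts were 269, 267, 282 and 249 in the WT muscles and 37.1, 57.5, 39.6 and 47.1 in the *mdx5cv* muscles. The highest *mdx5cv* muscle was far below the lowest WT muscle. The WT mean was 267 ± 13.6 and the *mdx5cv* mean 45.3 ± 9.19 (SD, n = 4). The log2 fold change was -2.55, with an SE of 0.15. These values rested on 235 to 255 reads per WT muscle and 40 to 61 reads per *mdx5cv* muscle. Leaving out any 1 of the 8 muscles kept the log2 fold change between -2.67 and -2.46. With equal totals it was -2.20, the groups again without overlap, and *Mettl21c* had the largest difference of the 6 members under each scaling tried.

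*Mettl21e* lies 184035 bases from *Mettl21c*, on the same strand, from 44204070 to 44218961 on chromosome 1. It is an active gene in rodents. Its normalized counts were 32.1, 42.8, 46.4 and 23.3 in WT and 23.2, 32.1, 24.3 and 7.99 in *mdx5cv*. The lowest WT muscle lay within the *mdx5cv* range, so that the groups overlapped although the *mdx5cv* mean was lower. The log2 fold change was -0.80 with an SE of 0.37, from only 10 to 42 reads per muscle. It rested in good part on *mdx5cv* replicate 4, without which it was -0.40. A pseudocount of 10 in place of 1 gave -0.57.

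*Mettl21a* encodes the broadly expressed enzyme that methylates Hsp70 proteins, among them HSPA8. The gene lies on chromosome 1 from 64606473 to 64617242, on the minus strand. Its normalized counts were 68.8, 88.8, 90.7 and 45.6 in WT and 100.1, 93.4, 101.8 and 85.5 in *mdx5cv*. With the deposited size factors *Mettl21a* alone among the members had the higher mean in *mdx5cv*, but *mdx5cv* replicate 4 fell below the highest WT muscles. The log2 fold change was 0.42 with an SE of 0.20, and WT replicate 4, the lowest muscle, decided much of it: without that muscle it was 0.21. Under equal totals the value was 0.77 and the groups did not overlap.

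Within the METTL21 members the balance differed between the groups. A ratio of 2 genes within a muscle does not depend on the scaling of that muscle. Per kilobase of exon, *Mettl21c* was 2.74, 2.10, 2.17 and 3.82 times *Mettl21a* in the WT muscles. In the *mdx5cv* muscles it was 0.259, 0.431, 0.272 and 0.385 times *Mettl21a*. The order of these 2 genes was therefore the opposite in each of the 8 muscles according to genotype. *Mettl21c* over *Mettl21e*, by contrast, was 5.59 to 9.84 in WT and 1.47 to 5.44 in *mdx5cv*, where replicate 4, with 10 *Mettl21e* reads, stood at 5.44 and the others at 1.47 to 1.65.

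**Figure D1:**
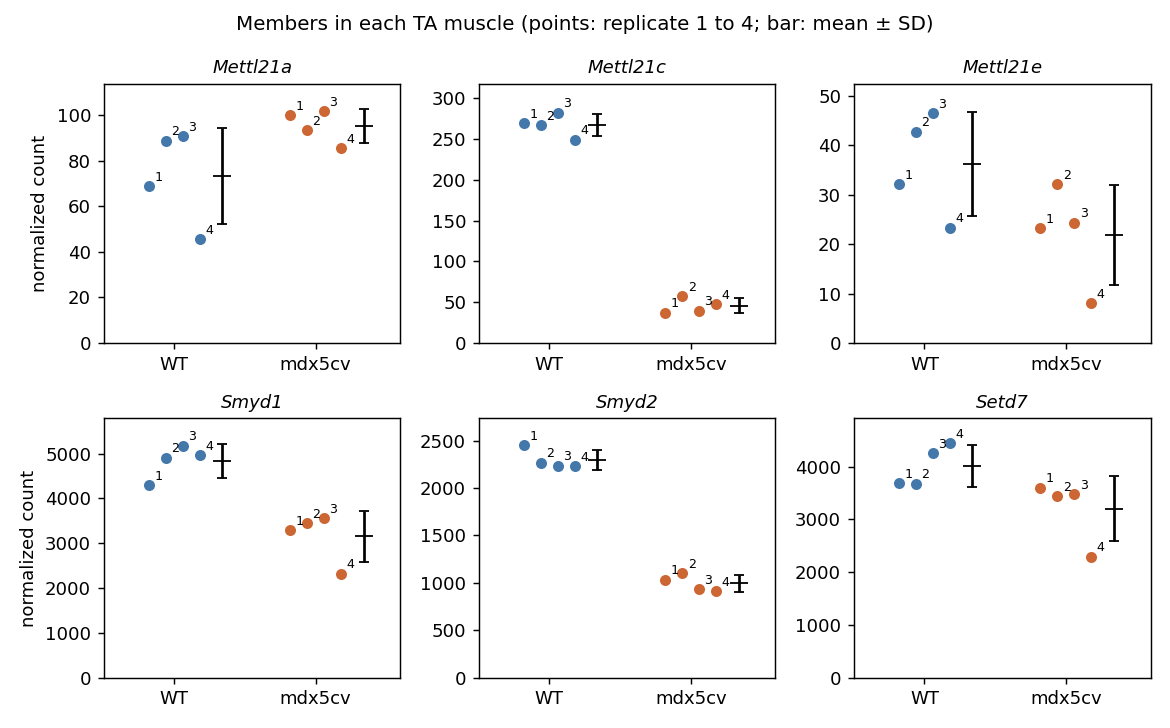
Normalized counts of the 6 members (y axis, from 0, a scale of its own in each panel) in the 4 WT and 4 *mdx5cv* TA muscles. Numbered points are replicates and bars are means with SD. *Mettl21c* and *Smyd2* show wide gaps between the groups, *Setd7* a gap of 3604 against 3677, and *Mettl21a* and *Mettl21e* overlap.

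*Smyd1* encodes the SMYD enzyme best known from striated muscle. It lies on chromosome 6 from 71213940 to 71322233, on the minus strand. Its normalized counts were 4299, 4911, 5170 and 4964 in WT and 3293, 3447, 3559 and 2319 in *mdx5cv*. All *mdx5cv* muscles were below all WT muscles, with replicate 4 the lowest by a wide margin. The means were 4836 ± 375 and 3155 ± 568 (SD, n = 4). The log2 fold change was -0.63, with an SE of 0.14. Without *mdx5cv* replicate 4 it was -0.49. With equal totals it was -0.27 and the groups overlapped, with 3608 to 4784 in WT and 3021 to 3890 in *mdx5cv*.

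*Smyd2* lies on chromosome 1 from 189880492 to 189922363, on the minus strand. The normalized counts of the gene were 2455, 2268, 2238 and 2228 in WT and 1035, 1102, 931 and 910 in *mdx5cv*. The values within each group were close together, with a coefficient of variation of 4.64% in WT and 9.05% in *mdx5cv*, so the gap between the groups was wide against the spread. The log2 fold change was -1.21 with an SE of 0.10, and it stayed between -1.261 and -1.169 when any 1 muscle was left out. With equal totals it was -0.85, again without overlap of the groups.

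*Setd7* encodes a SET domain enzyme outside the SMYD family. It lies on chromosome 3 from 51515319 to 51560879, on the minus strand. Muscle by muscle, the normalized counts were 3687, 3677, 4249 and 4443 in WT and 3604, 3444, 3478 and 2289 in *mdx5cv*. The groups were separated only by the step from 3604 to 3677. The log2 fold change of -0.34 (SE 0.14) was -0.19 without *mdx5cv* replicate 4, and with equal totals it was 0.015, with overlap.

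Relative to one another, *Smyd2* lost ground to the other SET domain members in *mdx5cv*. Per kilobase of exon, *Smyd1* over *Smyd2* was 1.05, 1.29, 1.38 and 1.33 in WT and 1.902, 1.87, 2.28 and 1.52 in *mdx5cv*. *Setd7* over *Smyd2* was 0.377, 0.407, 0.477 and 0.501 in WT and 0.875, 0.785, 0.939 and 0.632 in *mdx5cv*. Both ratios were higher in each *mdx5cv* muscle than in any WT muscle. *Setd7* over *Smyd1* moved less, from 0.315 to 0.376 in WT to 0.411 to 0.460 in *mdx5cv*, also without overlap. These differences between members do not depend on the scaling of the muscles.

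**Figure D2:**
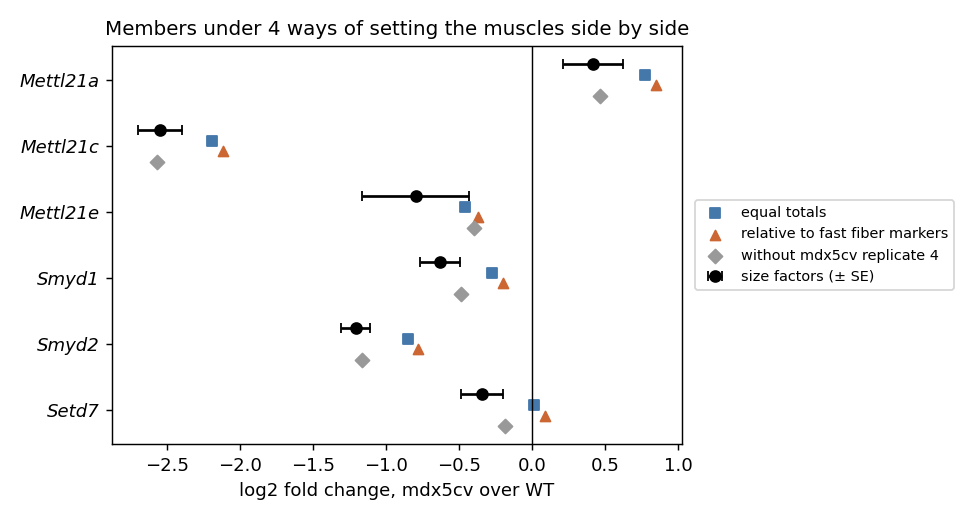
Log2 fold change of each member, *mdx5cv* over WT (x axis), with the deposited size factors (black, bars are SE), with equal totals, relative to the mean log2 level of 10 fast fiber markers, and without *mdx5cv* replicate 4. *Mettl21c* and *Smyd2* lie below 0 under each, while *Setd7* crosses from -0.34 to 0.015 with equal totals and 0.087 relative to the markers.

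The order of the levels was read per kilobase of exon, since the exon lengths of the members range from 2717 to 10813 bases. These lengths take in every annotated exon, used in this muscle or not, so the order and the shares below depend on the annotation. Without division by length, the WT mean of *Setd7* (4014) was above that of *Smyd2* (2297). In WT muscle *Smyd1* was highest at 1064 ± 82.5 normalized counts per kilobase, followed by *Smyd2* at 845 ± 39.2 and *Setd7* at 371 ± 36.2 (SD, n = 4). *Mettl21c* followed at 62.0 ± 3.16, *Mettl21a* at 24.4 ± 7.02 and *Mettl21e* at 9.13 ± 2.65. The ranges of neighbors in this order did not overlap in WT.
In *mdx5cv* muscle the order was *Smyd1* at 694 ± 125, *Smyd2* at 366 ± 33.1, *Setd7* at 296 ± 56.7, *Mettl21a* at 31.7 ± 2.46, *Mettl21c* at 10.5 ± 2.14 and *Mettl21e* at 5.53 ± 2.54. *Smyd2* and *Setd7* came close, with 335 to 406 against 212 to 333, and the ranges of neighbors again did not overlap. *Mettl21a* and *Mettl21c* were the 2 members that changed places. *Smyd2* made up 35.6% ± 2.73 of the summed level of the 6 members in WT (SD, n = 4), against 26.4% ± 3.14 in *mdx5cv*. The share of *Setd7* was 15.6% ± 1.19 and 20.99% ± 1.33, and that of *Mettl21c* was 2.61% ± 0.142 and 0.766% ± 0.202.

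**Figure D3:**
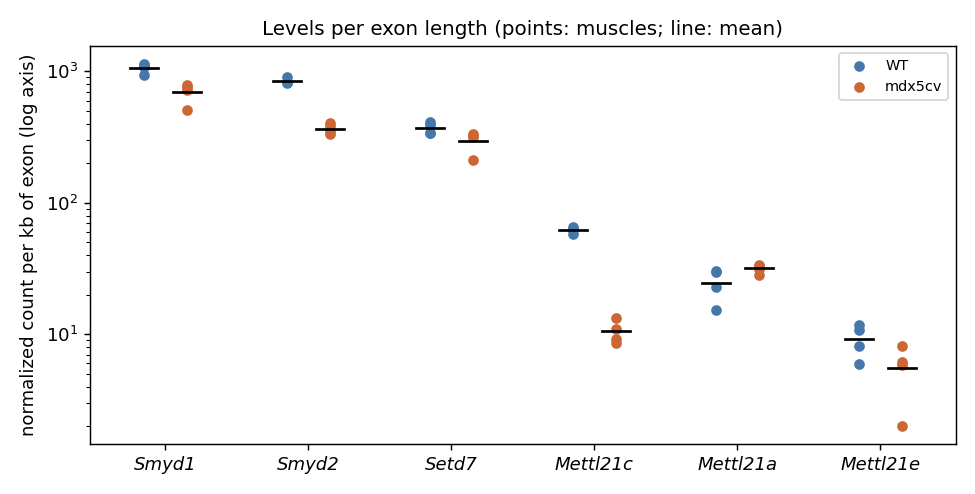
Level per kilobase of exon (log axis) of the members in the 4 WT and 4 *mdx5cv* muscles, ordered by the WT mean. Points are muscles and lines are means. *Mettl21c* lies above *Mettl21a* in WT (62.0 against 24.4) and below it in *mdx5cv* (10.5 against 31.7).

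With the deposited size factors, *mdx5cv* replicate 4 had the lowest *mdx5cv* value for 5 of the 6 members, all but *Mettl21c*. Its size factor, 1.25, was the largest of the 8, and this count depends on the scaling. With equal totals its values of *Smyd2* and *Mettl21a* were not the lowest in *mdx5cv*. With the deposited size factors this muscle also stood apart in the marker lists. The summed normalized count of 10 fast fiber markers was 719582 in this muscle, against 1036411 to 1103431 in the other *mdx5cv* muscles and 934167 to 1178561 in WT. The sum of 7 markers of regenerating fibers was 9487 in this muscle, against 2539 to 5356 in the other *mdx5cv* muscles and 198 to 229 in WT. The sum of 10 macrophage markers was 10734, against 4504 to 5885 and 650 to 981. In bulk muscle, fewer cells of a type and less RNA per cell cannot be told apart, and the part of these lists in the members' values was not tested.

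Across the groups, 5 of 10 fast fiber markers were called lower and none higher, and their median log2 fold change was -0.36. Over all genes tested, 20.1% were called lower and 20.9% higher. Of 7 slow fiber markers 4 were higher and 1 was lower. All 7 regenerating fiber markers, 3 of 6 satellite cell markers and 7 of 8 fibroblast markers were higher, as were 9 of 10 macrophage markers, with *Cd163* lower. All 6 endothelial markers and 4 of 5 adipocyte markers were lower. None of the 8 lymphocyte markers reached the minimum level, with summed counts of 2.21 to 16.5 in WT and 20.4 to 56.7 in *mdx5cv*. Of 5 cardiac markers *Myh6* was lower and *Tnnt2* higher, and the rest were below the minimum. Set against the fast fiber markers muscle by muscle, *Mettl21c* had a log2 fold change of -2.12 and *Smyd2* of -0.78, both without overlap, *Smyd1* of -0.20, *Setd7* of 0.087 and *Mettl21e* of -0.37 with overlap, and *Mettl21a* of 0.85 without overlap. This scaling was chosen after the data were seen.

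The nearest relatives of the members are the other METTL21-like, SMYD and SET enzymes of proteins, and these were tested. This list and the lists below were also chosen with earlier results of these data known. Their adjusted p-values are therefore not independent evidence. Of 20 such genes above the minimum level, 1 was called higher and 5 lower. Over all genes tested the shares were 20.9% and 20.1%. The median log2 fold change of the list was -0.11 against 0.0035 over all genes. With equal totals 4 were higher and 3 lower, against 5444 and 820 of all 13677 genes. The genes of this list that fell are not all lysine methyltransferases: *Mettl11b* encodes a methyltransferase of protein N-termini and *Setd3* one of a histidine in actin. *Mettl11b* fell most, from 352 to 615 normalized counts in WT to 116 to 176 in *mdx5cv* (log2 fold change -1.64, SE 0.17, adjusted p = 1.42e-05). Like *Mettl21c* and *Smyd2*, it is among the genes that the study itself lists from these samples, so its direction is not independent evidence. *Kmt5a*, which methylates histone H4 and p53, fell by 0.70 on the log2 scale (adjusted p = 0.000216), and *Mettl22* fell by 0.70 (adjusted p = 0.000364). *Setd3* (-0.48, adjusted p = 0.00388) and *Eef1akmt1* (-0.69, adjusted p = 0.00302), an enzyme of elongation factor 1A, were also called lower. Neither was past the threshold with equal totals, where the values were -0.12 and -0.34.

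*Vcpkmt*, also known as METTL21D, methylates the ATPase VCP and was the relative that rose. In WT it had 19.5, 14.3, 13.3 and 16.9 normalized counts, and in *mdx5cv* 38.9, 19.8, 28.8 and 33.6. Every *mdx5cv* muscle was above every WT muscle, and the log2 fold change was 0.85 (SE 0.26, adjusted p = 0.0194). Its adjusted p was 0.0522 without WT replicate 3, 0.0725 without *mdx5cv* replicate 1 and 0.0504 without *mdx5cv* replicate 4. *Eef1akmt3*, also known as METTL21B, had no read in the WT muscles and 4 and 2 reads in *mdx5cv* replicates 3 and 4, too few to test. The other SMYD genes did not pass the test: *Smyd3* had a log2 fold change of -0.15 (adjusted p = 0.362), *Smyd4* of -0.10 (adjusted p = 0.625) and *Smyd5* of 0.19 (adjusted p = 0.298). With equal totals *Smyd3* (0.20) and *Smyd4* (0.26) changed sign and *Smyd5* (0.55, adjusted p = 0.0216) was called. Leaving out 1 muscle kept *Smyd3* between -0.20 and -0.09 and *Smyd4* between -0.17 and -0.04.

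Of 25 lysine methyltransferases of histones tested, 12 were called higher, 2 lower and 11 neither, against 20.9% higher and 20.1% lower over all genes. The median log2 fold change was 0.35. With equal totals 20 were higher and none lower, against 5444 and 820 of all 13677 genes. *Setd1b*, an enzyme of histone H3 lysine 4, rose from 85.1 to 146 normalized counts in WT to 182 to 254 in *mdx5cv* (log2 fold change 1.06, SE 0.17, adjusted p = 0.000355). *Dot1l*, which methylates H3 lysine 79, rose by 0.82 (adjusted p = 0.00237). *Setmar* was called lower at -0.61 (adjusted p = 0.0244) and *Kmt2c* at -0.27 (adjusted p = 0.0362). The call of *Setmar* was lost without WT replicate 1 or 4 or *mdx5cv* replicate 1 or 4 (adjusted p of 0.0587 to 0.0657), where its log2 fold change was -0.57 to -0.52. The call of *Kmt2c* was lost in 5 of the 8 fits that left out 1 muscle (adjusted p of 0.0507 to 0.11), where its log2 fold change was -0.30 to -0.23. With equal totals *Setmar* was at -0.26 and *Kmt2c* at 0.09, and neither was past the threshold.

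Among the lysine demethylases, which remove methyl groups, 3 of 22 tested were called higher and 2 lower. Over all genes tested, 20.9% were called higher and 20.1% lower. With equal totals 15 demethylases were higher and none lower, where 5444 of all 13677 genes were higher and 820 lower. With each muscle centred on its median 2 demethylases were higher and 3 lower. *Kdm6b*, a demethylase of H3 lysine 27, had a log2 fold change of 0.48 (adjusted p = 0.0158) and *Kdm5b*, one of H3 lysine 4, of 0.43 (adjusted p = 0.00721). *Kdm7a* (-0.41, adjusted p = 0.00655) and *Kdm1b* (-0.40, adjusted p = 0.0168) were called lower, and with equal totals they stood at -0.06 and -0.04, not past the threshold. The call of *Kdm1b* was also lost without *mdx5cv* replicate 1 (adjusted p = 0.0575).

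**Figure D4:**
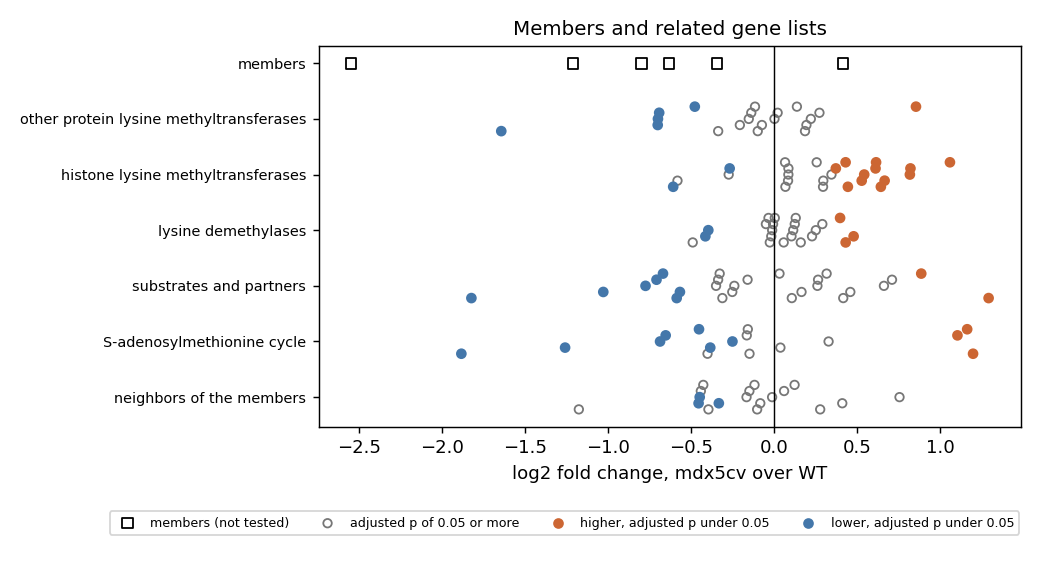
Log2 fold change, *mdx5cv* over WT (x axis), of the members (open squares, not tested) and of each tested gene of 6 related lists (circles, offset vertically for sight only). Filled circles passed an adjusted p of 0.05 from limma. Of the other protein lysine methyltransferases 1 was higher and 5 lower, and of the histone lysine methyltransferases 12 were higher and 2 lower, numbers that became 4 and 3, and 20 and 0, with equal totals. Of all 13677 genes, 2854 were higher and 2743 lower, numbers that became 5444 and 820 with equal totals.

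Known substrates and binding partners of the members and of their relatives were examined next. Of 26 tested, 2 were called higher and 7 lower, against 20.9% and 20.1% of all genes, with a median log2 fold change of -0.20. With equal totals 10 were higher and 4 lower, against 5444 and 820 of all 13677 genes. Without WT replicate 2, 14 of the 26 were called in place of 9. Among the Hsp70 proteins, *Hspa8*, the constitutive chaperone that METTL21A methylates, had 7696, 9848, 9192 and 9078 normalized counts in WT and 5755, 5486, 6149 and 6761 in *mdx5cv*. It was lower in every *mdx5cv* muscle, with a log2 fold change of -0.57 (adjusted p = 0.00196), and at -0.21 with equal totals it was not past the threshold. *Hspa1l*, a testis-enriched Hsp70, fell by 1.82 (adjusted p = 6.33e-06). *Hspa2* was called higher at 0.89 (adjusted p = 0.0247), though not without *mdx5cv* replicate 2 (adjusted p = 0.0669) or 3 (adjusted p = 0.0582). Without WT replicate 2, which had 27.4 normalized counts against 66.5 to 71.9 in the other WT muscles, it was at 0.56 (adjusted p = 0.0382). The stress-induced genes *Hspa1a* (0.17, adjusted p = 0.714) and *Hspa1b* (0.66, adjusted p = 0.234) had 6.58 to 30.4 normalized counts, did not pass the test, and are near-identical copies whose reads cannot be assigned with certainty. *Hspa1b* was called without *mdx5cv* replicate 1 (log2 fold change 1.07, adjusted p = 0.0358), and was at 0.37 without WT replicate 2, while *Hspa1a* ranged from -0.01 without WT replicate 3 to 0.39 without *mdx5cv* replicate 1.

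The partners of the SMYD members were not called, though each of the 5 came past the threshold under at least 1 alternative. *Hsp90aa1* had a log2 fold change of 0.26 (adjusted p = 0.162), or 0.13 without *mdx5cv* replicate 4, and *Hsp90ab1*, the constitutive HSP90, of -0.16 (adjusted p = 0.617). The *Hsp90ab1* value rested on WT replicate 2, which had 3251 normalized counts against 7235 to 8106 in the other WT muscles: without it the log2 fold change was -0.47 (adjusted p = 0.0052), and without any 1 of the other WT muscles it was -0.09 to -0.03. *Unc45b*, the myosin chaperone, had -0.34 (adjusted p = 0.0642). It was called without WT replicate 2 (-0.44, adjusted p = 0.0167) and with centring on the median (-0.43, adjusted p = 0.031), and it was at -0.22 without *mdx5cv* replicate 4. *Naca*, whose muscle isoform binds SMYD1, had 0.46 (adjusted p = 0.1001). It was called without WT replicate 4 (0.69, adjusted p = 0.00605), and was at 0.27 without WT replicate 2. *Ttn*, the giant sarcomere protein found with SMYD2, had 2018589 to 2153607 normalized counts in WT and 1388278 to 1788517 in *mdx5cv*, without overlap, at -0.33 (adjusted p = 0.638 from limma, and 0.00808 from DESeq2). Its adjusted p was 0.222 from edgeR and 0.0531 from limma without the variance trend, so it depended on how the variance was modeled. With equal totals *Hsp90ab1*, *Unc45b* and *Ttn* changed sign, to 0.20, 0.02 and 0.03. *Vcp*, the substrate of VCPKMT, had 0.11 (adjusted p = 0.470), or 0.01 without WT replicate 2, and *Hsp90aa1* (0.62), *Naca* (0.82) and *Vcp* (0.46) were called higher with equal totals. Of the translation substrates, *Eef1a1*, whose reads may be split with its processed copies, rose by 1.29 (adjusted p = 0.000291), with 10134 normalized counts in *mdx5cv* replicate 4 and 5368 to 6265 in the other *mdx5cv* muscles.

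The methyl donor itself is made and recycled by the S-adenosylmethionine cycle. Of 16 genes tested there, 3 were called higher and 7 lower, against 20.9% and 20.1% of all genes. Their median log2 fold change was -0.21. With equal totals 5 were higher and 2 lower, against 5444 and 820 of all 13677 genes. *Amd1*, the decarboxylase that turns the donor into a precursor of polyamines, fell most, from 3737 to 4914 normalized counts in WT to 734 to 1506 in *mdx5cv* (log2 fold change -1.88, SE 0.18, adjusted p = 7.91e-06). *Inmt*, a methyltransferase of small amines, fell by 1.259 (adjusted p = 0.00229). *Gamt*, the methyltransferase of creatine synthesis, rose by 1.16 (adjusted p = 3.99e-05). *Nnmt*, which methylates nicotinamide, was called higher at 1.198 (adjusted p = 0.0378) on 3.32 to 23.2 normalized counts, and its adjusted p was 0.0618 to 0.107 in 6 of the 8 fits that left out 1 muscle. *Mat2a*, the donor's synthase in muscle, had a log2 fold change of 0.04 (adjusted p = 0.773) and was named after its value was seen.

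Genes beside the members were read as well, those that overlap a member among them. Of 46 genes within 100000 bases of a member, 18 were above the minimum level, and 3 of these were called lower and none higher. Over all genes tested, 20.1% were called lower and 20.9% higher. With equal totals 4 neighbors were higher and none lower, against 5444 and 820 of all 13677 genes. *Rmnd5a* near *Smyd1* had a log2 fold change of -0.45 (adjusted p = 0.00782), *Krcc1*, which overlaps *Smyd1* on the opposite strand, of -0.45 (adjusted p = 0.0104), and *Naa15* near *Setd7* of -0.33 (adjusted p = 0.0289). With equal totals they stood at -0.09, -0.10 and 0.03 and were not past the threshold, and *Naa15* was not past it in 4 of the 8 fits that left out 1 muscle (adjusted p of 0.0608 to 0.0855). *Smyd2* and the antisense gene *Gm37422* share 814 exon bases, and *Gm37422* as a whole had at most 3.32 normalized counts. Reads in the shared bases were not counted apart. *5031434O11Rik* shares 131 exon bases with *Setd7* on the opposite strand and had 12.97 to 21.2 normalized counts (log2 fold change -0.17, adjusted p = 0.639, and -0.26 to -0.08 when 1 muscle was left out).

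The other genes that overlap a member share no exon base with it. *Gm15833*, a processed pseudogene in *Mettl21e*, had 8.78 to 24.4 normalized counts in WT and 0.799 to 11.3 in *mdx5cv* (log2 fold change -1.18, adjusted p = 0.116). It too was lowest in *mdx5cv* replicate 4, without which it was at -0.53. *Gm44321* in *Smyd1* had a log2 fold change of -0.15 (adjusted p = 0.679), with no steady direction: it was -0.38 without WT replicate 4 and 0.0058 without WT replicate 3. *Gm38245* in *Smyd2* had -0.40 (adjusted p = 0.195), and -0.19 without *mdx5cv* replicate 3. *Gm38200* in *Setd7* had 0.12 (adjusted p = 0.711), and 0.01 to 0.23 when 1 muscle was left out. *Gm15838*, *Mir8112* and *Gm1070* had at most 6.88 normalized counts in a muscle. The libraries were stranded, and whether the counting used the strand is not given in the sources used here.

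For each member, the 3 genes with the most similar profile over the 8 muscles were found among the 7641 genes whose mean normalized count reached 100, by Pearson's r of the log2 values. These r values are a description, since the difference between the groups and the size factors are shared by the genes. *Mettl21c* was most like *Taf9b* (r = 0.993), *Ces1d* (0.993) and *Slco3a1* (0.993). All 3 were lower in every *mdx5cv* muscle, and *Ces1d*, a lipid carboxylesterase, by far more than *Mettl21c*, from 400.0 to 808 normalized counts in WT to 7.20 to 19.8 in *mdx5cv*. *Smyd2* was most like *Gm25291* (0.995), the nuclear import factor *Ipo5* (0.994) and *Gcnt2* (0.994), with log2 fold changes of -1.11, -0.53 and -0.81.

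*Smyd1* was most like *Pgk1* (0.991), a glycolytic enzyme, *Ilrun* (0.990) and *Taf12* (0.989). *Pgk1* had the same log2 fold change as *Smyd1*, -0.63, and its lowest muscle was also *mdx5cv* replicate 4, at 2011 normalized counts. *Setd7* was most like *Ppm1l* (0.979), the potassium channel gene *Kcnc4* (0.977) and *Sugt1* (0.971), each lowest in *mdx5cv* replicate 4. *Mettl21e* was most like *Bsdc1* (0.987), *Gpd1l* (0.979) and *Gnl3l* (0.968), whose log2 fold changes of -0.26, -0.16 and -0.16 were smaller than its own. *Mettl21a* was most like *Leprotl1* (0.950), *Ube2q1* (0.938) and *Tmco4* (0.930), which were all lowest in WT replicate 4, as *Mettl21a* was.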

How the data were processed

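The authors deposited a signal per gene, in which the reads had been divided by a size factor of the muscle, in 1 table of 55401 genes from 8 TA libraries (4 WT, 4 *mdx5cv*). Per the submitters' processing notes, the tools included FastQC, Trim Galore 0.6.4, STAR 2.6.0c, SAMtools 1.9, featureCounts, MultiQC 1.6, DESeq2 1.26.0 and R 3.6.2 with mm10. The kit gave stranded total RNA libraries.

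Whole reads came out for 100% of the values (tolerance 0.01), at 13175524 to 14921057 reads per muscle, and the size factors equaled median-of-ratios factors. Between replicates, chi-square per degree of freedom was 8.59 to 38.4, and all 8 libraries were kept as separate samples. Groups came from the genotype labels.

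The main test was limma 3.58.1 (R 4.3.3; lmFit, then eBayes with trend, two-sided, no covariate), applied to log2(normalized count + 1). Benjamini-Hochberg adjustment ran over the 13677 genes whose mean normalized count reached 10, and a call is an adjusted p under 0.05. On this scale the fold change of a low gene is understated. On the recovered reads, edgeR 4.0.16 (quasi-likelihood test) called 5550 genes and DESeq2 1.42.0 called 5556, against 5597 from limma. The scripts were tested on simulated data. Python 3.11.15 with numpy 2.4.6, pandas 2.3.3 and matplotlib 3.10.9 did the remaining steps.

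The members and gene lists were chosen with earlier results of these data known. The text names the members, *Dmd*, the called and 5 set genes of the other protein methyltransferases, the 2 largest called rises and falls of each other list (in the substrates list with 9 set genes), called or overlapping neighbors, and the 3 genes most like each member, except 1 gene that is not reported here. Marker genes named singly and *Mat2a* were named after their values were seen. *Cskmt* was not matched by symbol. Alternatives were a pseudocount of 0.1 or 10, other filters, equal totals, TMM factors, no variance trend, centring on the median, a replicate block, a minimum of 1 for the absolute log2 fold change, edgeR, DESeq2 and leaving out each muscle. Scaling to the fast fiber markers was added after the data were seen. Coordinates and exon lengths are those of GENCODE M21 on GRCm38 (55141 IDs matched).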

Additional observations from a re-analysis of the deposited data

Results flagged for a closer look

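A muscle was marked where its gap to the nearest of the others in its group exceeded Dixon's 95% critical value for 4 samples. This held in 11 of 163 sets of 4, and chance marks about 1 in 20, or 8.15 of them. Among the members, *Setd7* had 2289 normalized counts in *mdx5cv* replicate 4, below 3444 to 3604 in the others. The same muscle was lowest for *Unc45b* (1863), *Ttn* (1388278) and *Rmnd5a* (1363). WT replicate 2 was highest of its group for *Mettl22* (856) and *Eef1akmt1* (176) and lowest for *Kmt5a* (1007) and *Hspa2* (27.4). *Hspa1a* was lowest in *mdx5cv* replicate 1 (11.1), and *Naa15* in WT replicate 3 (840.3). *Gm1070* had a normalized count of 1.06 in WT replicate 4, a single read, and none in the other WT muscles.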

How the results depend on the processing

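The 6 log2 fold changes and the lists changed most with scaling. With equal totals they were 0.77 for *Mettl21a*, -2.20 for *Mettl21c*, -0.46 for *Mettl21e*, -0.27 for *Smyd1*, -0.85 for *Smyd2* and, reversed, 0.015 for *Setd7*. Relative to the fast fiber markers they were 0.85, -2.12, -0.37, -0.20, -0.78 and, again reversed, 0.087. A pseudocount of 10 gave -2.33 for *Mettl21c*. Equal totals called 15 demethylases and 14 substrates. The neighbors called were 5 without a filter and 5 with centring on the median. A minimum of 1 for the absolute log2 fold change left 1861 of the 5597 genes called.

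Leaving out 1 muscle gave 0.21 to 0.53 for *Mettl21a*, -2.67 to -2.46 for *Mettl21c*, -1.03 to -0.40 for *Mettl21e*, -0.70 to -0.49 for *Smyd1*, -1.261 to -1.169 for *Smyd2* and -0.41 to -0.19 for *Setd7*. Calls ranged from 4609 to 5524 over all genes, 5 to 6 for other protein methyltransferases, 10 to 14 for histone methyltransferases, 4 to 7 for demethylases, 9 to 14 for substrates (14 without WT replicate 2), 7 to 9 for the S-adenosylmethionine cycle and 2 to 4 for neighbors. Members without overlap were 5 without WT replicate 4, where *Mettl21e* was added by 32.09 against 32.07, 5 without *mdx5cv* replicate 4, where *Mettl21a* was added, and 4 otherwise. With equal totals or relative to the fast fiber markers they were 3, *Mettl21a* higher and *Mettl21c* and *Smyd2* lower. Tests, pseudocounts, filters, the trend and the block give no separate value for this count. *Mettl21e* drops out where each muscle must reach a normalized count of 10.

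Same-numbered muscles deviated together with correlations of 0.050, 0.031, 0.072 and 0.146. The highest correlation of each WT muscle with an *mdx5cv* muscle of another number was 0.074, 0.058, 0.038 and 0.0059. The same number thus gave the higher value for replicates 3 and 4 only. All these correlations were low, and the numbers were not taken to pair the muscles. With the replicate block, 5616 genes, 6 other protein methyltransferases, 16 histone methyltransferases, 5 demethylases, 11 substrates, 8 genes of the S-adenosylmethionine cycle and 3 neighbors were called, and *Naca* was called (adjusted p = 0.0296). The causes of these changes were not tested. *Mettl21e* and *Vcpkmt* rest on at most 42 reads per muscle.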
